A study of Capra hircus with 27 samples.

Results

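The genes described here are the 100 of 22131 goat genes whose mean level at 2000 m lay furthest beyond those at both 600 m and 3000 m in heart, lung and skeletal muscle alike, 50 on the high side and 50 on the low side. The number was set by the rule, and the genes were chosen on measured values. Only 5 of them had no overlap between the 2000 m libraries and the other samples in all 3 tissues, and 33 overlapped in every tissue. Of the 9602 genes the rule could choose from, 0.0625% were separated in all tissues on the high side and 0.0104% on the low side. In every tissue, 86.9% were not separated on the high side and 90.5% were not on the low side. Of 17671 genes whose IDs begin with GOAT, 10487 had a mean FPKM above 0.5 in each tissue, and 9602 of these had tissue means of log2(FPKM + 1) that lay within 3 of each other. FPKM, which divides the fragments of a gene by transcript length and by library size, allows levels of different genes to be set side by side. In each tissue, the gap was the distance on the log2(FPKM + 1) scale between the mean at 2000 m and the mean of the nearer of the other populations, counted as positive when 2000 m lay beyond both. The score was the smallest gap of the 3 tissues. The 50 genes with the largest score above the other populations form the 2000 m-high list, and the 50 with the largest score below them form the 2000 m-low list. The gaps, the scores and every comparison of 2000 m with 600 m or 3000 m are therefore descriptions of how the genes were chosen. Counts of calls in those comparisons are given last, and they are no test of the members.

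The libraries came from indigenous goats aged about 3 years from Ya'an in Sichuan (600 m), Zhaotong in Yunnan (2000 m) and the A'ba area of Sichuan (3000 m). Heart, lung and muscle of each population gave 3 libraries each, 27 in all, made from total RNA with a strand-specific protocol. Population, place and altitude coincide, so they cannot be told apart. The methods of the study describe 3 unrelated adult females each at 600 m and 3000 m and do not cover the 2000 m animals, so whether those were of the same sex or were sampled and sequenced together with the others is not given in the sources used here. The methods thus give separate animals within a tissue at 600 m and 3000 m, which also gave the other tissues. Which libraries share an animal is not stated, and neither the labels nor the methods say whether the 2000 m libraries came from separate animals, so that p-values measure only the spread between these libraries. The labelled tissues could not be checked against marker genes, because 0 of the 22131 IDs matched a gene symbol in the gene table used here. For the same reason, the lists of hypoxia, interferon, clock and other pathway genes drawn up for the comparison could not be used. Both lists are given by rank, and only their leading pairs by ID, with no name, position, sequence or role.

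Air holds less oxygen the higher one goes. The lung takes oxygen up, the heart drives the blood that carries it, and skeletal muscle is among the main tissues that spend it. RNA of a whole tissue comes from many cell types at once, so fewer cells of a type and less RNA per cell cannot be told apart. Most genes differ far more between these tissues than between animals in 1 of them.

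The share of genes above an FPKM of 0.5 was 56.2% to 56.8% in heart libraries at 2000 m, against 52.8% to 53.6% at 600 m and 54.9% to 55.6% at 3000 m. The lung values were 62.1% to 62.9% at 2000 m and 60.5% to 63.1% at the other altitudes, and in muscle 52.5% to 53.5% and 51.9% to 54.0%. The deposited values carry no counts, so the depth of each library is not known here. Muscle replicates 1 and 2 at 600 m were much closer to each other than any other replicates. The robust SD of their log2 ratio was 0.0863 over genes above 50 FPKM, against 0.199 to 0.504 in 26 other replicate pairs. They were averaged and counted as 1 sample, so that muscle at 600 m had 2 samples and every other group 3. They were not identical, since the 2000 m-low member ranked 17 had an FPKM of 10.4 in one and 1.07 in the other.

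Of the 9602 genes, 713 (7.43%) had a score above 0 on the high side and 694 (7.23%) on the low side. The same rule with the altitudes exchanged gave 2219 and 1308 genes for 600 m, and 249 and 614 for 3000 m. The 50 largest scores had a median of 0.42 on the high side and 0.25 on the low side at 2000 m. The medians were 1.08 and 0.69 at 600 m and 0.18 and 0.43 at 3000 m. In both directions the 600 m population thus had more genes with a positive score, and larger ones, than the 2000 m population. The last member of the 2000 m-high list had gaps of 0.64, 0.34 and 0.53 in heart, lung and muscle, and the first gene left out had gaps of 0.34, 0.39 and 0.43. On the low side these were 0.22, 0.30 and 0.46 for the last member and 0.22, 0.43 and 0.43 for the first gene left out. The lists end in a run of near-equal scores, not at a break.

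GOAT_ENSP00000354901 led the 2000 m-high list, and its gaps in heart, lung and muscle were 1.26, 1.30 and 1.23. In heart its FPKM was 6.43, 7.32 and 7.67 at 2000 m, 0.327, 2.08 and 2.06 at 600 m, and 5.67, 0.575 and 2.73 at 3000 m. In lung it was 75.6, 37.2 and 37.8 at 2000 m, 23.3, 27.0 and 10.2 at 600 m, and 5.14, 6.76 and 12.2 at 3000 m. The 2000 m libraries were the highest in both tissues, and the level was highest in lung at every altitude. In muscle it was 12.5, 2.35 and 3.22 at 2000 m, 2.75, 1.86 and 0.829 at 600 m, and 0.331, 0.241 and 1.70 at 3000 m. There the groups were kept apart only by the averaging of the first 2 libraries at 600 m, since replicate 1 at 600 m lay above replicate 2 at 2000 m. The score of 1.23 was 0.61 without muscle replicate 1 at 2000 m, 0.70 without heart replicate 2 at 3000 m and 0.80 without muscle replicate 3 at 600 m.

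GOAT_ENSBTAP00000036844 ranked second, with gaps of 1.22, 1.44 and 1.67. Its lung FPKM of 50.7, 50.7 and 51.6 at 2000 m was nearly the same in every library, while it spread over 32.1, 3.20 and 19.4 at 600 m and 7.59, 28.4 and 27.1 at 3000 m. In muscle it was 9.75, 6.72 and 5.70 at 2000 m, against 0.444, 0.914 and 2.57 at 600 m and 0.489, 2.59 and 2.2 at 3000 m. In both tissues every 2000 m library was above every other library. In heart it was 17.6, 14.6 and 24.4 at 2000 m, 0.663, 2.42 and 18.5 at 600 m, and 3.62, 8.14 and 12.8 at 3000 m, so that replicate 3 at 600 m overlapped with 2000 m. Replicate 3 was also the highest heart library of this gene at each altitude. Its score of 1.22 was 0.80 without heart replicate 1 at 3000 m.

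GOAT_ENSP00000338160 led the 2000 m-low list, and its gaps in heart, lung and muscle were 0.94, 0.75 and 1.59. In muscle its FPKM was 41.6, 13.9 and 43.7 at 2000 m, against 181, 181 and 319 at 600 m and 77.1, 139 and 69.3 at 3000 m. In heart it was 31.2, 28.7 and 18 at 2000 m, 35.6, 114 and 144 at 600 m, and 49.2, 69.3 and 35.4 at 3000 m. The 2000 m libraries were the lowest in both tissues, and in heart the nearest libraries of the other populations were only slightly higher. The lung values were 57.8, 35.3 and 16.5 at 2000 m, 124, 215 and 228 at 600 m, and 69.1, 65.9 and 36.9 at 3000 m. The lung groups of 2000 m and 3000 m overlapped, and 600 m lay above both. Lung set the score of 0.75, which was 0.28 without lung replicate 3 at 2000 m.

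GOAT_ENSBTAP00000003055 ranked second among the low genes, with gaps of 1.24, 1.29 and 0.68. In heart its FPKM was 2.0, 1.93 and 3.18 at 2000 m, below 13.1, 21.2 and 5.29 at 600 m and 3.61, 5.60 and 15 at 3000 m. In lung it was 1.31, 1.88 and 4.39 at 2000 m, 23.2, 11.1 and 4.03 at 600 m, and 4.07, 9.03 and 9.27 at 3000 m. The heart groups did not overlap, while in lung the highest 2000 m library passed the lowest library of each of the other populations. In muscle it was 3.60, 2.99 and 2.88 at 2000 m, 20.8, 16.8 and 5.34 at 600 m, and 3.40, 3.35 and 14.3 at 3000 m. Its score of 0.68 came from muscle and rested on replicate 3 at 3000 m, without which it was 0.08.

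**Figure D1:**
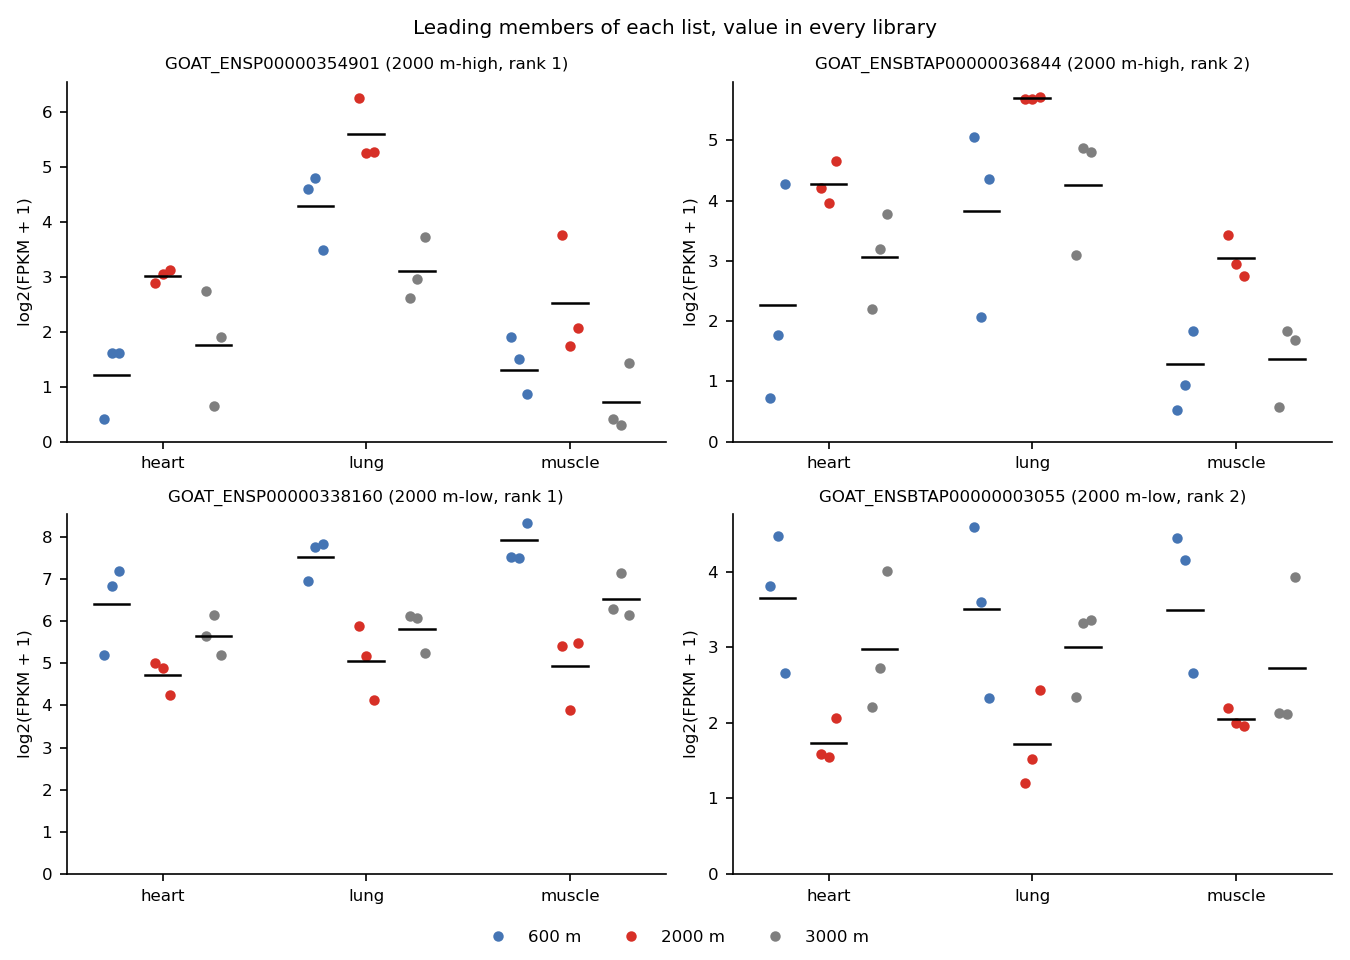
Expression of the leading pair of each list in heart, lung and muscle. Each point is 1 library on the log2(FPKM + 1) scale, coloured by altitude, and each bar is the group mean, with muscle replicates 1 and 2 at 600 m averaged first. The red points (2000 m) lie above most blue (600 m) and grey (3000 m) points in the upper panels and below most of them in the lower panels, with overlap in heart for GOAT_ENSBTAP00000036844, in muscle for GOAT_ENSP00000354901, in lung for GOAT_ENSP00000338160 and in lung and muscle for GOAT_ENSBTAP00000003055.

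All 2000 m libraries lay above every sample of the other populations in all 3 tissues for 4 members of the 2000 m-high list, ranked 1, 7, 10 and 31. This held for 6 of the 9602 genes (0.0625%), but the count follows from how the genes were chosen. The member ranked 7 was a gene of low level in heart, with an FPKM of 2.10, 2.48 and 2.01 at 2000 m, 0.179, 0.402 and 0 at 600 m, and 0.961, 0.372 and 1.17 at 3000 m. The lung values were 13.6, 10.2 and 9.55 at 2000 m, 1.11, 2.09 and 0.308 at 600 m, and 5.95, 8.05 and 3.69 at 3000 m. In muscle it was 1.03, 0.972 and 1.19 at 2000 m, and no library of the other populations was above 0.320. The order of populations in heart and lung was thus 600 m, 3000 m, 2000 m, while in muscle 600 m and 3000 m were at about the same level.

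The member ranked 10 was of moderate level throughout. Its heart FPKM was 18.7, 14 and 22.3 at 2000 m, 13.3, 7.27 and 8.06 at 3000 m, and 6.11, 3.83 and 4.67 at 600 m. Its lung FPKM was 26.7, 37.5 and 45.6 at 2000 m, 22.7, 17.7 and 25.5 at 3000 m, and 12.4, 7.58 and 3.84 at 600 m. Its muscle FPKM was 14.9, 16.6 and 14.5 at 2000 m, 13.5, 6.02 and 10.5 at 3000 m, and 5.19, 5.79 and 4.80 at 600 m. The 600 m libraries were the lowest in every tissue, and the highest 3000 m library came close to the lowest 2000 m library in each. For the member ranked 31 the separation in lung was narrow, with 9.86 in the lowest 2000 m library and 9.83 in the highest 3000 m library.

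On the low side, all 2000 m libraries were below every other sample in all 3 tissues for the member ranked 8 and for no other of the 9602 genes (0.0104%). Its FPKM in heart was 13.9, 13.0 and 12.8 at 2000 m, 17.2, 18 and 26.4 at 600 m, and 26.2, 25.4 and 22.6 at 3000 m. In lung it was 23.9, 22.7 and 27.1 at 2000 m, 33.7, 36.3 and 48.3 at 600 m, and 33.7, 30.9 and 36.5 at 3000 m. In both tissues all 2000 m libraries were the lowest. In muscle it was 21.7, 27.2 and 20.6 at 2000 m, 54.8, 56.0 and 194 at 600 m, and 36.9, 58.9 and 36.0 at 3000 m, with replicate 3 at 600 m far above the rest. With the members fixed, leaving out a library can only keep or raise the counts without overlap in all tissues. The shares of the 9602 genes were not computed for these runs. The high count was 11 without muscle replicate 2 at 2000 m and 9 without lung replicate 3 at 3000 m. The low count was 6 without lung replicate 1 and 2 without heart replicate 1 at 2000 m, and 2 and 4 without lung replicates 2 and 3 at 3000 m.

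Taken tissue by tissue, groups without overlap were more frequent in heart than in lung for both lists, as they were over the 9602 genes. Of the 50 high genes, 30 were separated in heart (9.24% of the 9602 genes), 20 in lung (2.45%) and 20 in muscle (2.71%). No tissue separated 8 of them (86.9%). Of the 50 low genes, 18 were separated in heart (3.56%), 4 in lung (1.08%) and 14 in muscle (5.66%), and 25 in none (90.5%).

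In the 2000 m-high list the gaps ran from 0.37 to 2.18 in heart, 0.34 to 2.93 in lung and 0.35 to 1.67 in muscle, with medians of 0.64, 0.57 and 0.56. A gap of at least 1 was reached by 12 members in heart, 6 in lung and 5 in muscle. Muscle held the smallest gap, and so set the score, for 25 members, lung for 14 and heart for 11. In the 2000 m-low list the gaps ran from 0.22 to 1.24, 0.22 to 1.65 and 0.22 to 1.59, with medians of 0.37, 0.34 and 0.53. A gap of at least 1 was reached by 3 members in heart, 3 in lung and 4 in muscle. Lung set the score for 21 members, heart for 15 and muscle for 14. The plot of gaps by rank shows how the gaps of single tissues scatter above the score.

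**Figure D2:**
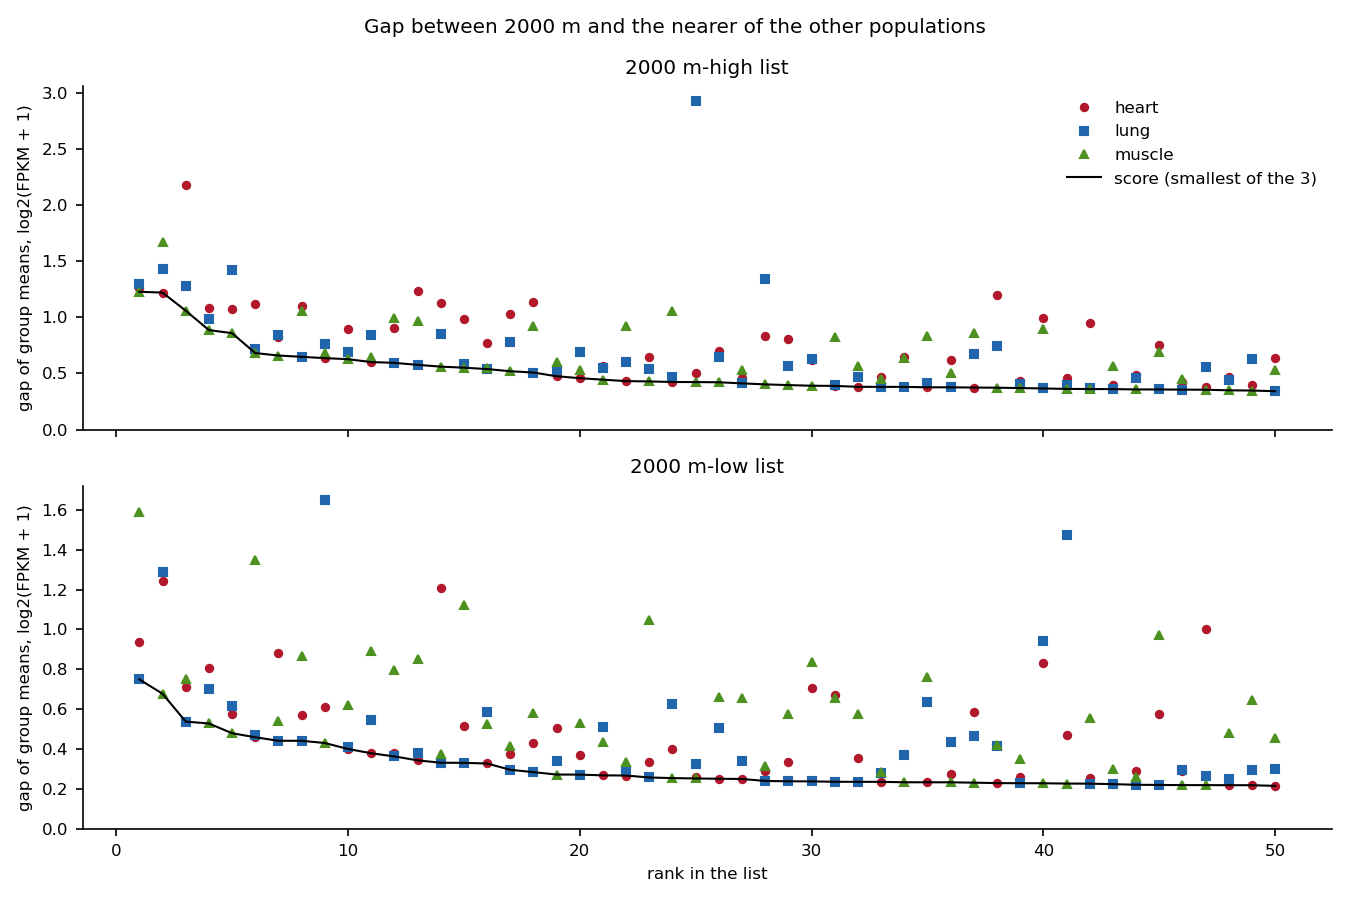
Gap between 2000 m and the nearer of the other populations (vertical axis, log2(FPKM + 1)) by rank in each list (horizontal axis). Points are heart, lung and muscle, and the line is the score, the smallest of the 3. The line falls steeply over the first ranks and then runs nearly flat to 0.34 (high) and 0.22 (low), while single tissues reach 2.93 and 1.65.

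Several large gaps came with uneven libraries. The member ranked 25 in the high list had the largest gap of all, 2.93 in lung, where its FPKM was 43.0, 18.3 and 70.2 at 2000 m and no other library was above 6.49. Its muscle gap was only 0.42, and there it was 15.5, 13.5 and 0.0731 at 600 m against 5.10, 4.01 and 4.34 at 2000 m. The single library of muscle replicate 3 thus drew the 600 m mean below 2000 m although the other 600 m libraries were higher.

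The member ranked 3 in the high list was listed at 0 in 2 heart libraries at 600 m and at 13.1 in the third, against 55.0, 62.4 and 71.6 at 2000 m and 4.67, 14.9 and 29.9 at 3000 m. The lung values were 132, 2.67 and 9.29 at 600 m, against 170, 181 and 238 at 2000 m and 48.9, 115 and 88.5 at 3000 m. Replicate 1 was the highest library at 600 m in both tissues, and it lay below all 2000 m libraries in both. The member ranked 3 in the low list had the reverse arrangement, with 229, 8.74 and 6.48 in lung at 600 m against 1.57, 6.53 and 1.60 at 2000 m and 6.72, 1.52 and 6.95 at 3000 m. There the highest library was again replicate 1 at 600 m.

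The most abundant member of the high list by its 2000 m level in heart was that ranked 8, with an FPKM of 523, 434 and 356 at 2000 m, 385, 148 and 144 at 600 m, and 211, 205 and 113 at 3000 m. In muscle it was 703, 342 and 287 at 2000 m, 257, 242 and 155 at 600 m, and 228, 131 and 144 at 3000 m. It was separated in muscle and overlapped in heart, where replicate 1 at 600 m passed the lowest 2000 m library. In the low list, the member ranked 4 was at a similarly high level, with 276, 291 and 267 in heart at 2000 m against 726, 417 and 382 at 600 m and 870, 498 and 327 at 3000 m. All its 2000 m heart libraries were below all others.

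The 2 lists differed in level. The median over the high members of the mean FPKM at 2000 m was 6.90, 18.8 and 5.43 in heart, lung and muscle, against 3.04, 7.74 and 2.33 at 600 m and 3.44, 11.3 and 2.66 at 3000 m. In the low list the medians at 2000 m were 10.4, 10.8 and 5.51, against 15.7, 21.8 and 13.3 at 600 m and 15.6, 14.7 and 8.57 at 3000 m. Over all libraries of a tissue, the median FPKM of the high members was 4.34 in heart and 3.90 in muscle, below the medians of 8.64 and 7.30 over the 9602 genes, while in lung it was 12.9 against 12.6. That of the low members was 13.5, 16.6 and 8.47 in heart, lung and muscle, above those medians in each tissue. Of the high members, 35 had their highest level in lung, 8 in heart and 7 in muscle, and of the 9602 genes 65.2% were highest in lung. Of the low members, 24 were highest in heart, 20 in lung and 6 in muscle, against 20.3% in heart for the 9602 genes.

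Values of 0 were more frequent in the high list. A library at 0 occurred in 10 of its 50 members, 9 of them with such a library at 600 m, 4 at 3000 m and 1 at 2000 m. In the low list it occurred in 3 members, and in 1.75% of the 9602 genes. The high members were chosen for means below that of 2000 m at 600 m and 3000 m, so their count follows in part from the choice. IDs beginning with GOAT_ENSBTAP made up 32 of the 50 high members and 23 of the 50 low members, against 50.6% of the 9602 genes, and the others began with GOAT_ENSP.

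Every 2000 m library showed the shift in the list as a whole, which follows in part from the choice of the genes on these values. With each gene centred on its mean in the tissue, the median over the high members was 0.58, 0.53 and 0.77 in the 2000 m heart libraries, 0.53, 0.56 and 0.75 in lung and 0.63, 0.39 and 0.46 in muscle. Libraries of the other populations ranged from -0.70 (lung replicate 3 at 600 m) to 0.07 (lung replicate 3 at 3000 m). In the low list the median was -0.31, -0.27 and -0.47 in the 2000 m heart libraries, -0.16, -0.37 and -0.53 in lung and -0.56, -0.37 and -0.42 in muscle. Libraries of the other populations lay between -0.20 (lung replicate 3 at 3000 m) and 0.60 (lung replicate 3 at 600 m), so that lung replicate 1 at 2000 m was not below all of them. The median over the 9602 genes ran from -0.19 in heart replicate 1 at 600 m to 0.17 in muscle replicate 3 at 600 m. Lung replicate 1 at 600 m stood apart from the other 600 m lung libraries, at 0.01 in the high list against -0.51 and -0.70.

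**Figure D3:**
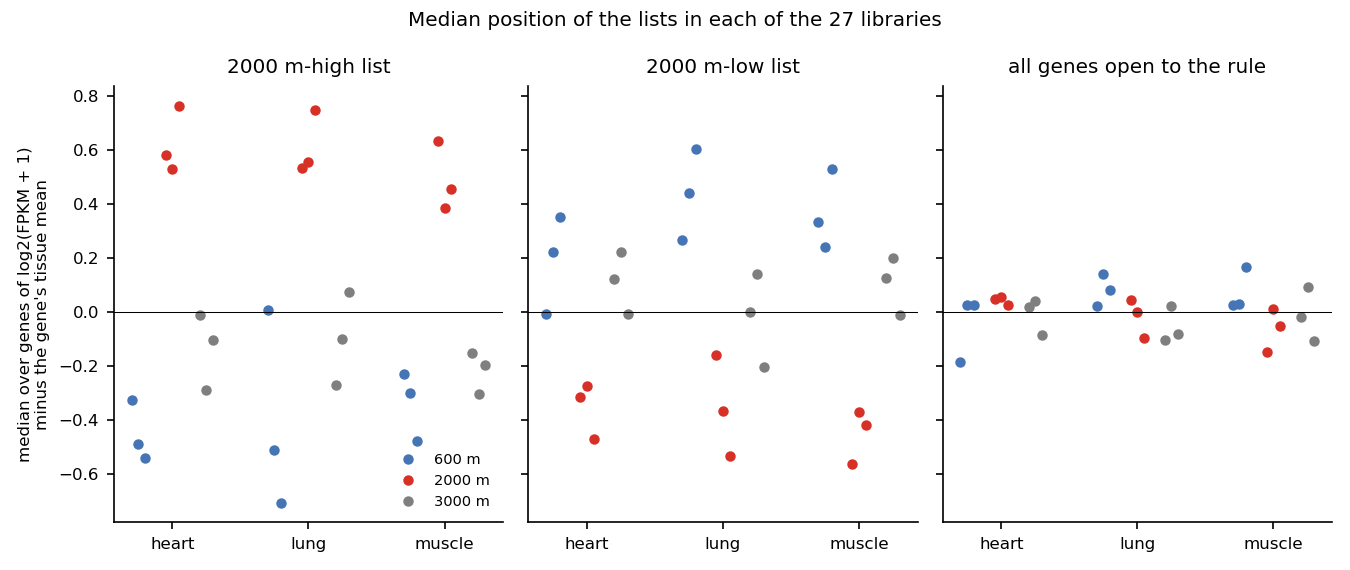
Median position of the 2000 m-high list, the 2000 m-low list and the 9602 genes in each of the 27 libraries. The vertical axis is the median over genes of log2(FPKM + 1) minus the mean of the gene in the tissue, and points are coloured by altitude. Red points (2000 m) are above all others in the left panel, from 0.39 to 0.77, and at or below -0.16 in the middle panel, while in the right panel all libraries lie between -0.19 and 0.17.

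How far a 2000 m library follows members it did not help to choose was described by applying the rule without the 3 libraries of 1 replicate number at 2000 m and then placing those libraries. The means at 600 m and 3000 m were the same in both steps, so the result is not independent of the choice. The labels also do not say that a number marks 1 animal across tissues. Libraries of a left-out animal may therefore have stayed among those that chose the genes. Of 50 high genes chosen without replicate 1, 2 or 3, the left-out libraries lay above both other means in all tissues for 39, 32 and 32. The shares were 7.33%, 8.68% and 5.85% of all genes open to the rule in each run, which filtered genes anew without those libraries. For the 50 low genes, the left-out libraries lay below both means in all tissues for 17, 23 and 32, against 4.64%, 5.74% and 8.63%. The lists chosen this way shared 32, 37 and 29 high members and 32, 27 and 23 low members with the full lists.

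Leaving out any 1 of the 26 samples kept between 37 and 49 of the 50 high members and between 32 and 50 of the 50 low members. The lowest number in the low list came without lung replicate 3 at 2000 m. Only 4 high members and 6 low members were kept in all 26 runs, of which 3 and 5 were among the first 10 ranks. With the muscle libraries at 600 m kept separate, 43 high and 49 low members remained. A minimum mean FPKM of 5 in each tissue kept 16 high and 33 low members.

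The median spread among replicates was larger over members than over the 9602 genes. The median SD of log2(FPKM + 1) over high members in lung was 0.55 at 600 m, 0.27 at 2000 m and 0.41 at 3000 m, against 0.20, 0.20 and 0.22 over the 9602 genes. In heart it was 0.36, 0.24 and 0.35 against 0.22, 0.16 and 0.17, and in muscle 0.34, 0.31 and 0.40 against 0.20, 0.23 and 0.23. The SD at 600 m was above that at 2000 m for 35 high members in heart, 40 in lung and 29 in muscle, against 65.5%, 51.6% and 43.9% of the 9602 genes. Low members had an SD at 600 m above that at 2000 m in 28, 15 and 25 cases. The median SD of low members in lung was 0.22 at 600 m, 0.34 at 2000 m and 0.36 at 3000 m. In lung the high members were thus most variable where they were low, at 600 m, and the low members were more variable at 2000 m and 3000 m than at 600 m.

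The deviations of the 2000 m libraries from their group means were compared across tissues over the 100 members. They are given as Pearson's r across genes, which are not independent replicates, and each deviation shares its group mean with the other libraries of the group. Heart and lung libraries of the same replicate number had r of 0.48, 0.53 and 0.67, and those of different numbers ranged from -0.54 to 0.13. Heart and muscle libraries of the same number had r of 0.13, -0.04 and -0.32, while heart replicate 2 and muscle replicate 3 had 0.54. Lung and muscle libraries of the same number had -0.03, -0.04 and -0.39, while lung replicate 2 and muscle replicate 3 had 0.44. Over the 9602 genes, heart and lung of the same number had 0.25, 0.33 and 0.45, and heart and lung replicate 2 had 0.34 and 0.42 with muscle replicate 3. The highest value with muscle there was 0.45, for lung replicate 3 and muscle replicate 1, a pair that had 0.25 over the members. The lists differed in this. Over the high members, lung and muscle of the same number had 0.37, 0.12 and 0.12, and heart and muscle 0.39, -0.02 and -0.01. Over the low members these were -0.15, -0.19 and -0.69, and 0.10, -0.22 and -0.43. At 3000 m, same-numbered libraries had positive r in every pair of tissues, from 0.26 to 0.60 over the members. The labels do not say that a number marks 1 animal. At 2000 m, same-numbered heart and lung libraries had positive r in both lists, while same-numbered muscle libraries had r above 0 in 4 of 6 pairs over the high members and in 1 of 6 over the low members.

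**Figure D4:**
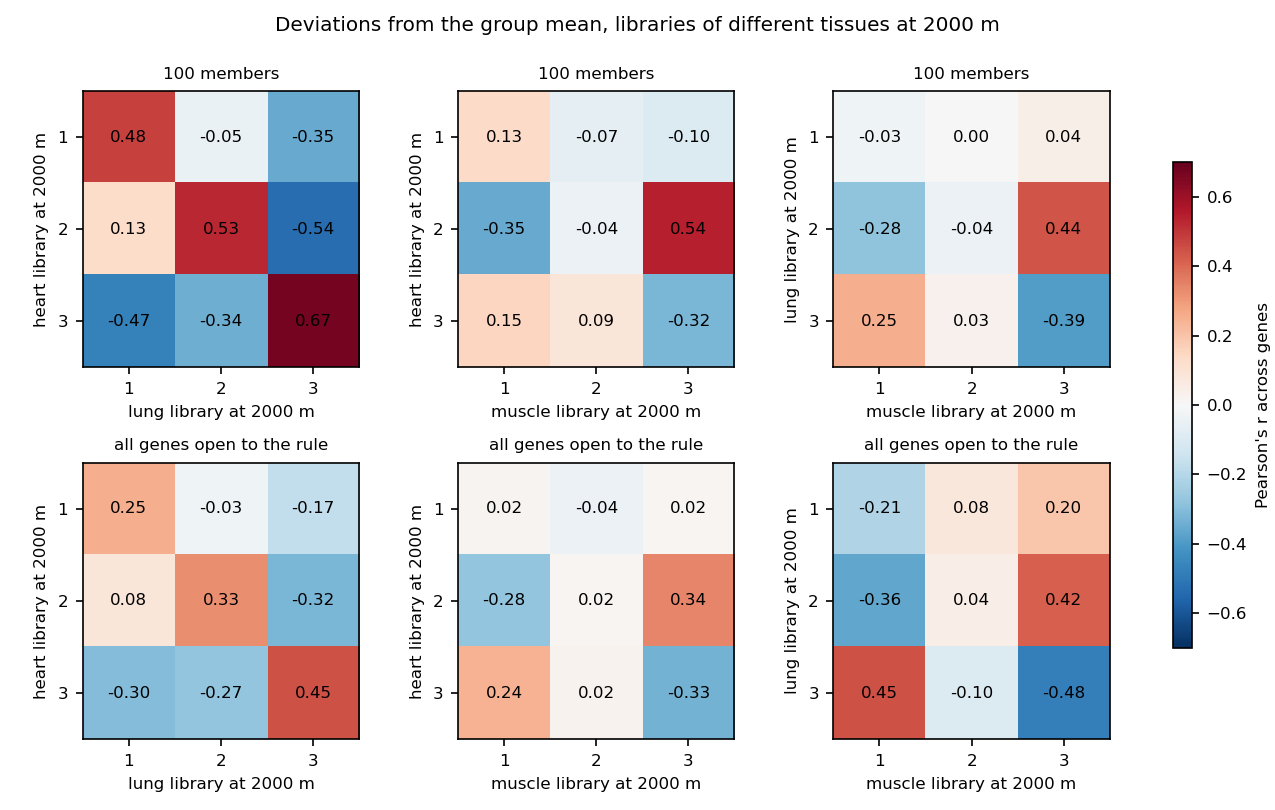
Pearson's r between the deviations of 2000 m libraries from their group means, for heart and lung, heart and muscle, and lung and muscle, over the 100 members (top) and the 9602 genes (bottom). Axes are replicate numbers, and colour and printed numbers give r. For heart and lung the diagonal is red (0.48, 0.53 and 0.67 over the members), whereas in the pairs with muscle the deepest red over the members is off the diagonal, at heart replicate 2 and muscle replicate 3 (0.54).

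The comparison of 3000 m with 600 m asks how the members stood in the lowland and highland populations that the study set against each other. The rule did not rank on this difference, although both group means entered it. In the high list, the mean was higher at 3000 m than at 600 m in all 3 tissues for 28 members, lower in all for 5 and mixed for 17. In the low list it was higher in all for 1, lower in all for 23 and mixed for 26. Over the 9602 genes 19.2% were higher and 31.6% lower in all tissues. The nearer population to 2000 m was 3000 m for 39 high members in heart, 34 in lung and 33 in muscle, while 55.2%, 35.9% and 39.8% of the 9602 genes were higher at 3000 m than at 600 m. For the low list these were 32, 44 and 39 members, with 44.8%, 64.1% and 60.1% of the 9602 genes lower at 3000 m. The order 600 m, 3000 m, 2000 m in every tissue was thus held by 28 high members and 23 low members.

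In heart, 8 members passed limma's test with Benjamini-Hochberg adjustment over 12363 genes, of which 11.1% passed, so the share among members was no higher than among all genes. Of the high members, 6 were higher at 3000 m (7.38% of all genes) and 1 was lower (3.75%), and 1 low member was lower. After median-of-ratios scaling, which changes the level of whole libraries, 13 members and 14.9% of all genes passed, and of the members 5 were higher and 8 lower, so the split between directions depends on the scaling. The count was 21 without replicate 1 at 600 m, where 18.9% of all genes passed, 5 and 4 without replicates 2 and 3 at 600 m (3.27% and 2.43%), and 0 and 4 without replicates 1 and 3 at 3000 m (0.113% and 2.52%). At an unadjusted p under 0.05 there were 15 high and 14 low members, each of 50, and 31.6% of all genes, so the members' share was no higher than that of all genes. The median difference was 0.32 over high members, -0.05 over low members and 0.08 over all genes.

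The high member ranked 18 rose most among those that passed in heart, by 1.39 on the log2 scale (SE 0.36, limma adjusted p = 0.0399), with an FPKM of 7.91, 2.98 and 2.15 at 600 m and 12.7, 8.81 and 14 at 3000 m. The high member ranked 9 rose by 1.17 (SE 0.16, limma adjusted p = 0.0128), from 13.1, 13.6 and 12.2 at 600 m to 34.8, 28.2 and 28.6 at 3000 m. The 2000 m heart libraries of the latter were higher still, at 45.4, 40.0 and 60.2. The high member ranked 41 was the exception in direction and fell by 1.43 (SE 0.31, limma adjusted p = 0.0246), from 14.1, 22.9 and 13.4 at 600 m to 4.68, 9.62 and 3.45 at 3000 m. The others that were higher at 3000 m, ranked 34, 45, 47 and 48, differed by 0.62 to 1.14. The low member ranked 29 fell by 1.37 (SE 0.22, limma adjusted p = 0.0140), from 276, 300 and 324 at 600 m to 137, 131 and 86.4 at 3000 m. Its 2000 m libraries were at 119, 88.3 and 72.4 and overlapped with 3000 m.

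In lung, 5 members passed among 13965 genes, of which 2.84% passed. Of these, 2 high members were higher at 3000 m (0.73% of all genes) and 3 low members were lower (2.11%). The count was 17 without replicate 1 at 600 m, where 11% of all genes passed. It was 1 without replicate 1 or 2 at 2000 m (0.1% and 0.0859% of all genes), and 0 without replicate 3 at 2000 m, without replicate 2 or 3 at 600 m and without any 1 of the 3000 m replicates, where 0% to 0.143% of all genes passed. It was also 0 after quantile normalization and 0 with only the compared populations in the fit, and no member passed in every setting. At an unadjusted p under 0.05 there were 11 high and 15 low members, each of 50, and 26.6% of all genes. The median difference was 0.38 over high members, -0.40 over low members and -0.08 over all genes.

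The high member ranked 34 passed in both lung and heart. In lung it was higher at 3000 m by 1.33 (SE 0.23, limma adjusted p = 0.0438), with an FPKM of 4.15, 5.62 and 3.89 at 600 m, 15.7, 11.6 and 11.6 at 3000 m and 11.9, 19.1 and 21.4 at 2000 m. In heart it was higher by 0.77 (SE 0.14, limma adjusted p = 0.0182), with 6.49, 6.77 and 6.29 at 600 m, 14.3, 10.4 and 11.1 at 3000 m and 19.5, 17.0 and 20.9 at 2000 m. In both tissues the 600 m libraries lay below all others. The high member ranked 7 was higher by 1.70 in lung (SE 0.34, limma adjusted p = 0.0441). The low members ranked 30, 32 and 17 fell by 1.24, 1.01 and 0.83. For the member ranked 30 the lung FPKM was 194, 190 and 234 at 600 m, 93.9, 90.0 and 76.8 at 3000 m and 80.5, 64.0 and 76.1 at 2000 m, so that 3000 m and 2000 m lay together below 600 m.

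In muscle, 0 members passed limma's test among 11920 genes, of which 2.08% passed, and 7 high and 11 low members, each of 50, had an unadjusted p under 0.05, as did 22.8% of all genes. The count was 4 with the muscle libraries at 600 m kept separate (7.57% of all genes), 4 without replicate 2 at 3000 m (6.55%), 3 without the averaged 600 m sample (5.36%) and 2 without replicate 3 at 600 m (0.453%). Leaving out a 600 m sample leaves 1, whose spread is then assumed to be that of the other groups. The median difference was 0.10 over high members, -0.42 over low members and -0.08 over all genes.

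None of the leading pairs passed the test between 3000 m and 600 m in any tissue. GOAT_ENSP00000338160 came nearest, with a log2 difference of -1.71 in lung (SE 0.44, limma adjusted p = 0.0588), with log2 differences of -0.75 in heart and -1.4 in muscle. Without replicate 1 at 600 m it passed in lung (-1.98, limma adjusted p = 0.0327) and, without replicate 1 at 600 m of heart, in heart (-1.35, limma adjusted p = 0.0209). GOAT_ENSP00000354901 differed by 0.55 (SE 0.49) in heart, -1.20 (SE 0.42) in lung and -0.58 (SE 0.58) in muscle, with limma adjusted p-values of 0.470, 0.115 and 0.573. For GOAT_ENSBTAP00000036844 the differences were 0.80 (SE 0.77), 0.44 (SE 0.71) and 0.08 (SE 0.44), and for GOAT_ENSBTAP00000003055 -0.67 (SE 0.51), -0.50 (SE 0.55) and -0.76 (SE 0.59). Their adjusted p-values lay between 0.399 and 0.934.

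**Figure D5:**
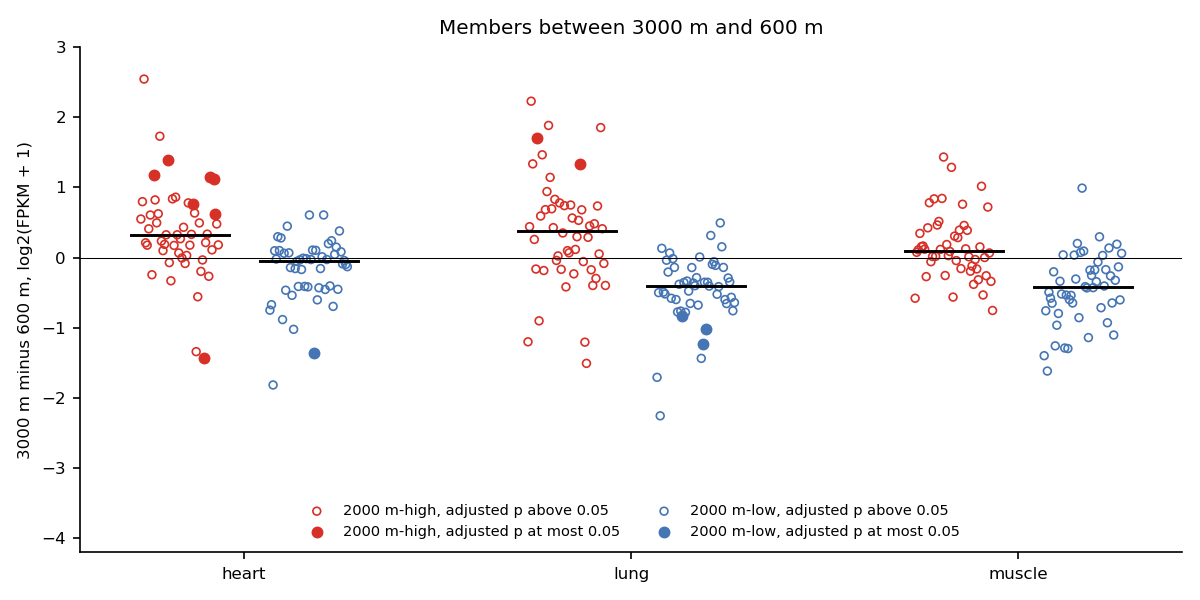
Difference between 3000 m and 600 m of the 50 high (red) and 50 low (blue) members in heart, lung and muscle, on the log2(FPKM + 1) scale. Each point is 1 gene, filled where limma's adjusted p was at most 0.05, and bars are medians. The medians are 0.32, 0.38 and 0.10 for the high list and -0.05, -0.40 and -0.42 for the low list, and 8, 5 and 0 points are filled.

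An interaction contrast in limma over 11244 genes asked whether the difference between 3000 m and 600 m varied from tissue to tissue. Lung and muscle differed in 1.47% of all genes, heart and muscle in 1.33% and heart and lung in 0.0445%. In at least 1 pair of tissues, 258 of the 11244 genes passed, and among the members, 1 passed. The high member ranked 7 rose more in lung than in muscle, by 1.58 (SE 0.38, limma adjusted p = 0.0392). Its muscle values at 600 m and 3000 m all lay at or below 0.320 FPKM, where log2(FPKM + 1) compresses differences. The fit required a mean FPKM above 0.5 in each tissue, which this member met in muscle only through its 2000 m libraries. The count of members was 5 with the replicate number of each altitude as a random block, where 615 of the 11244 genes passed. It was 5 without muscle replicate 2 at 3000 m (866 of all genes) and 3 without lung replicate 1 at 600 m (325). It was 2 without muscle replicate 1 or 3 at 2000 m (342 and 250). The count was 0 without muscle replicate 1 or 3 (129 and 75) or lung replicate 1 or 2 (180 and 205) at 3000 m. It was also 0 without lung replicate 3 at 600 m (162), lung replicate 2 (197) or heart replicate 2 or 3 (194 and 205) at 2000 m.

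The comparisons with 2000 m share their 2000 m libraries and were used by the rule. The counts of members follow in part from that choice and are no test of them, so they are given side by side without a reading. Against 600 m in heart, where 22.5% of all genes passed (16.3% higher and 6.18% lower at 2000 m), 32 high members were called higher and 19 low members lower. In lung (5.1%, of which 2.22% higher and 2.88% lower) these were 13 and 11, and in muscle (5.91%, of which 1.93% higher and 3.98% lower) 10 and 9. Against 3000 m, limma called 0 members in each tissue, and of all genes 0.00809% in heart, 0% in lung and 0.00839% in muscle. At an unadjusted p under 0.05, the comparison of 3000 m with 2000 m held 35, 20 and 27 high members and 19, 5 and 17 low members in heart, lung and muscle, and 14.5%, 5.78% and 8.82% of all genes.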

How the data were processed

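The deposited table holds log2(FPKM + 1) for 27 libraries, made by the authors with TopHat 2.0.11 on the goat assembly CHIR_1.0 and Cufflinks 2.2.1 (versions per the labels). The methods of the study cover only the 600 m and 3000 m goats, so they do not describe these steps for the 2000 m libraries. The table holds no counts, so precision could not be tied to depth, and 0 columns of other samples were found. FPKM was recovered from the deposited log2 values, and the averaged pair of muscle libraries was averaged as FPKM, leaving 26 samples. Groups came from the labels.

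The rule was applied with a pseudocount of 1, a minimum mean FPKM of 0.5 and 50 genes per list. The members and lists were chosen with earlier results of these data known. Altitudes were compared in each tissue with limma (lmFit, then eBayes with a trend) on genes with a mean FPKM above 0.5 in that tissue, with all 3 altitudes in the fit, as two-sided tests called at a Benjamini-Hochberg adjusted p of 0.05. All 100 members passed this filter in each tissue, since the rule has the same minimum. limma takes the place of the study's Cuffdiff, which needs files not used here. Fold changes on this scale understate those of low genes. The interaction fit covered the 9 groups. The leading 2 genes of each list were named by ID, and members given by rank were picked for the text after their values were seen. The fits were tested on simulated data. Alternatives were a pseudocount of 0.1, other filters, median-of-ratios scaling, quantile normalization, separate muscle libraries, only the compared groups, the replicate number as a block and leaving out each sample in turn. Those of the interaction and the rule without 1 replicate number were added after the data were seen. The software was limma 3.58.1 under R 4.3.3, with pandas 2.3.3, NumPy 2.4.6 and matplotlib 3.10.9 under Python 3.11.15.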

Additional observations from a re-analysis of the deposited data

Results flagged for a closer look

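The difference between 3000 m and 600 m of the 2000 m-high member ranked 7 was larger in lung than in muscle by 1.58 on the log2 scale (limma adjusted p = 0.0392 in the interaction contrast). In muscle its 600 m and 3000 m libraries all lay below the minimum mean FPKM of 0.5, so it met that filter only through 2000 m.

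For 4 further members every 3000 m sample lay beyond every 600 m sample, but in opposite directions in a pair of tissues. Muscle, with 2 samples at 600 m, was in each pair, and the share of all genes with such a reversal was not computed. The 2000 m-high member ranked 49 was higher at 3000 m by 0.48 in heart and lower in muscle (-0.34), and the interaction of these tissues had a limma adjusted p of 0.0912. The 2000 m-low member ranked 25 was lower in lung (-0.40) and higher in muscle (0.99), with a limma adjusted p of 0.0795. The 2000 m-low member ranked 36 was lower in heart (-0.45) and higher in muscle (0.30), with a limma adjusted p of 0.192. The 2000 m-low member ranked 47 was lower in lung (-0.35) and higher in muscle (0.19), with a limma adjusted p of 0.432, and its muscle groups were kept apart only by averaging 2 libraries at 600 m, at 2.72 and 3.06 FPKM, against 2.94 in the lowest 3000 m library. Thus 4 of the 5 differences between tissues did not pass the test of the difference itself.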

How the results depend on the processing

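The counts of members called between 3000 m and 600 m rest on few libraries. In heart (8 as reported, with 11.1% of all genes) 13 members passed after median-of-ratios scaling (14.9%) and 3 with only the compared groups (2.27%). Leaving out 1 sample gave 0 to 21 members (0.113% to 18.9% of all genes). In lung (5, with 2.84% of all genes) 2 passed with no filter on low values (1.1%). There 0 passed after quantile normalization (0.308%), with only the compared groups (0.00716%) or with the replicate block (0.0143%). Leaving out 1 lung sample gave 0 to 17 members (0% to 11% of all genes). In muscle (0, with 2.08% of all genes) 1 passed with a pseudocount of 0.1 (2.13%) and 1 after median-of-ratios scaling (1.84%). With separate libraries 4 passed, against 7.57% of all genes. Leaving out 1 muscle sample outside the 600 m group gave 0 to 4 members (0.268% to 6.55% of all genes). The interaction (1, with 258 of 11244 genes) gave 3 with separate libraries (439 of 11232) and 5 with the replicate block (615 of 11244). It gave 0 to 5 members when 1 sample outside muscle at 600 m was left out (75 to 866 genes). The cause was not tested. Of the 50 high members the rule kept 32 with a pseudocount of 0.1, 16 with a mean FPKM above 5, and 37 to 49 when 1 sample was left out. Of the 50 low members it kept 33 with a mean FPKM above 5 and 32 to 50 when 1 sample was left out. The high members without overlap in all tissues (4) were 2 after median-of-ratios scaling and 4 to 11 when 1 sample was left out. The low ones (1) were 3 after median-of-ratios scaling, 4 after quantile normalization and 1 to 6 when 1 sample was left out. Leaving out a sample could only keep or raise both counts. For all genes, the heart calls were 912 higher and 463 lower at 3000 m as deposited, 797 and 1046 after median-of-ratios scaling and 737 and 812 after quantile normalization. In lung they were 102 and 294, then 151 and 132, and 30 and 13, and in muscle 92 and 156, then 77 and 142, and 80 and 82. For the leading pairs, the differences between 3000 m and 600 m that passed in an alternative setting kept the sign of the reported fit. The signs of other members were not compared across settings. Over all settings, 145 counts stayed within 1.5 times the reported one and 54 did not.

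Replicate numbers did not pair the altitudes. Deviations of same-numbered samples correlated at -0.12 to 0.13 in heart, -0.18 to 0.27 in lung and -0.20 to 0.07 in muscle, and those of different numbers at -0.14 to 0.17, -0.20 to 0.20 and -0.17 to 0.22. The replicate block gave 7 members in heart (7.42% of all genes), and 0 in lung (0.0143%) and in muscle (0.973%). With 2 or 3 samples a group and no counts, differences within the replicate spread were not detectable.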
